A study of Arabidopsis thaliana with 36 samples.

Results

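The 10 genes described here belong to the SAUR family (small auxin up RNA), each measured through the probe set that carries its locus as its only gene on the Affymetrix ATH1 array. They are SAUR58 (AT1G43040), SAUR36 (AT2G45210), SAUR14 (AT4G38840), SAUR15 (AT4G38850), SAUR16 (AT4G38860), SAUR27 (AT3G03840), SAUR9 (AT4G36110), SAUR78 (AT1G72430), SAUR50 (AT4G34760) and SAUR46 (AT2G37030). These 10 are part of 56 SAUR loci with a probe set of 1 gene, among 80 SAUR loci in the RefSeq gene table of assembly TAIR10.1 and 22746 probe sets tested. The list was drawn up with the differences between flight and ground control known, so those differences chose the members and are given below as a description. Whether the levels of each member across organs also played a part in that choice is not known. Those levels were tested on the same arrays, so the organ tests are not independent of the choice.

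Arabidopsis thaliana seedlings grew for 12 days on solid medium in spaceflight, in the Advanced Biological Research System on the International Space Station, or in a ground control unit of the same hardware in the Orbital Environmental Simulator chamber at Kennedy Space Center, which was started later and followed the station's recorded conditions. The organ arrays hold flight hypocotyls, flight leaves and flight roots and the same organs of the ground control, 5 arrays each, with 1 from plate 2, 2 from plate 4 and 2 from plate 6. Each organ array is a pool of plants of which 60% were WS and 40% Col-0, and flight and ground control pools alike carried GFP reporter transgenes, named in the labels as Adh::GFP, DR5::GFP (a synthetic auxin response element) and UB::GFP (a constitutive viral promoter). Whole plants, all WS, gave 3 arrays per environment, 1 from each plate. The deposited labels call the leaf samples shoots, while the harvest protocol describes leaves cut at the petiole base. All plants were fixed in RNAlater, and flight plants were fixed in orbit.

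SAUR genes encode small, short-lived proteins, and many of them are among the first transcripts to accumulate after auxin is applied. The best studied members bind and inhibit PP2C-D phosphatases, which otherwise remove the activating phosphate from plasma membrane proton pumps. With the phosphatases held back, the pumps acidify the cell wall, and the wall loosens as the cell expands. Other members respond to light, temperature, senescence or ethylene more than to auxin, and many SAUR genes stand in tandem clusters.

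Signals are linear MAS5 values that the authors scaled to a common trimmed mean on all 36 arrays, whose median signals lay between 158.9 and 203.8. In each organ the signal below which the lowest 40% of probe sets fell, called the low-signal limit, was 89.9 in hypocotyls, 92.6 in leaves, 108.6 in roots and 110.7 in whole plants. Levels of different probe sets are not compared, since each has its own probe efficiency. The 4 leaf markers on the array summed to 40349 to 71986 in flight leaves and 56666 to 76669 in ground control leaves, against 12624 to 19148 in hypocotyls and 1070 to 2292 in roots of both environments. The 5 root markers summed to 26422 to 37930 in roots, 11828 to 20958 in hypocotyls and 977 to 2868 in leaves. All 5 root markers were above the low-signal limit in roots, and 4 were below it in hypocotyls and in leaves. In such pools, fewer cells of a type and less RNA per cell cannot be told apart.

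**Figure D1:**
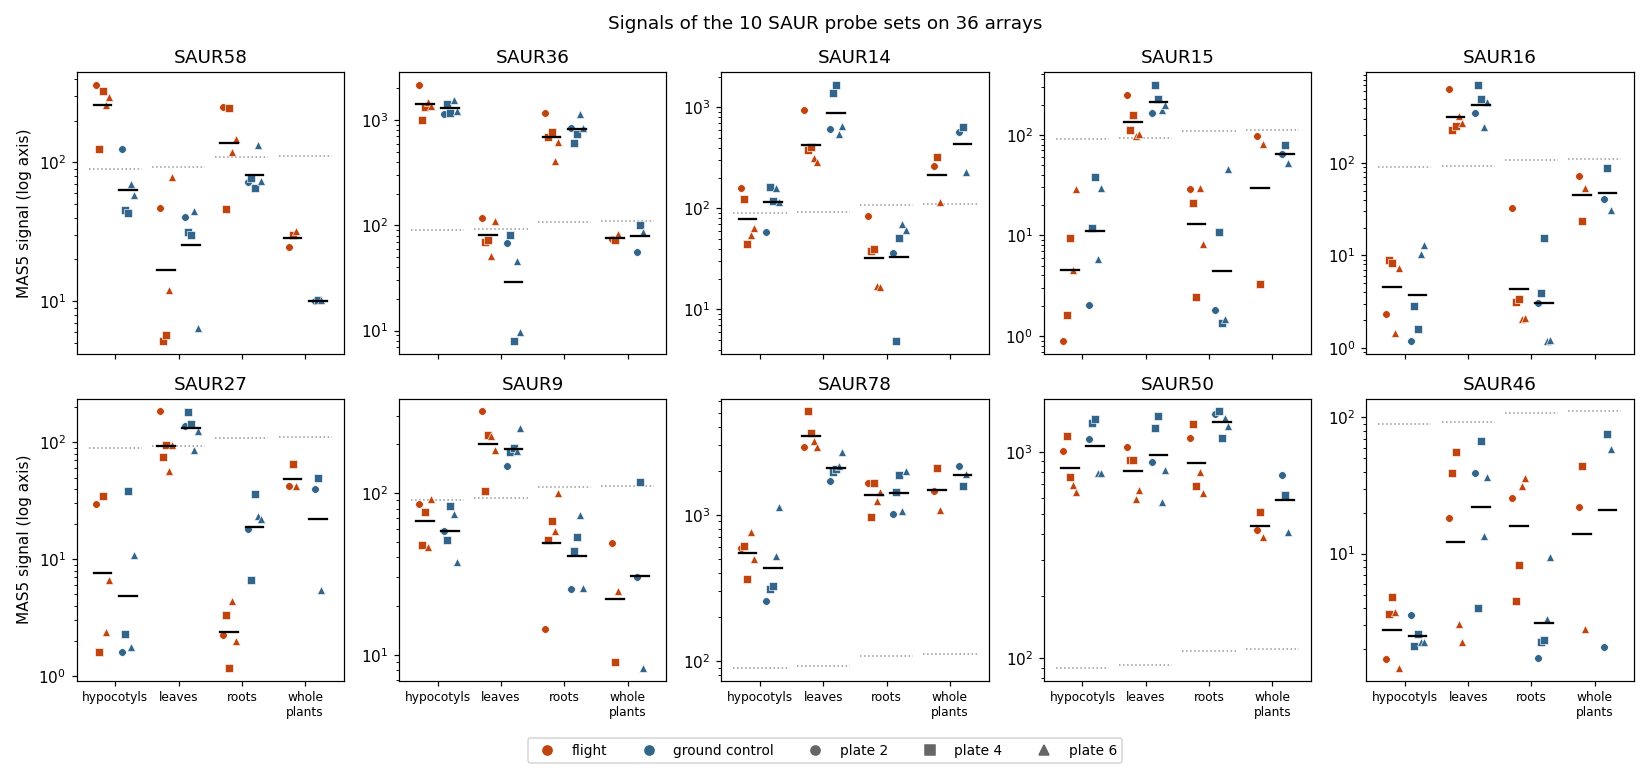
Signal (MAS5, log axis) of each SAUR probe set on every array, with flight left of ground control in each organ, symbols for the plate, a bar at the geometric mean and a dotted line at the low-signal limit of the organ. SAUR14, SAUR15, SAUR16, SAUR27, SAUR9 and SAUR78 stand highest in leaves, SAUR36 in hypocotyls and roots, and SAUR50 is at similar levels in the 3 organs.

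The organ contrasts use the same flight and ground control arrays as the contrasts behind the choice of members, and they are given for both environments. Pools of a group with the same plate number shared that plate, and each environment came from a single growth run. The p-values treat the pools as independent and measure the spread between them, not the spread between growth runs. Leaves were the organ with the highest level for 6 of the members in flight and 7 in the ground control. The 7 include SAUR46, which lay below the low-signal limit on every array. The share of all probe sets that were highest in leaves is not given here. In flight hypocotyls against flight leaves, 2 members were higher and 7 lower at an adjusted p under 0.05 from limma, where 20% of all probe sets were higher and 13.7% lower. In ground control hypocotyls against ground control leaves, 1 was higher and 7 were lower, where the background was 21.4% and 16.2%. Flight roots against flight leaves gave 2 higher and 6 lower members (background 26.7% and 15.3%), and ground control roots against ground control leaves also gave 2 higher and 6 lower (25.6% and 17.3%). Hypocotyls and roots differed for fewer members, with 0 higher and 2 lower in flight hypocotyls against flight roots (12.8% and 14.5%) and 1 higher and 1 lower in ground control hypocotyls against ground control roots (15.5% and 16.4%). These counts include SAUR27 and SAUR46, which were not called present on any root array. SAUR46 is among the 2 lower in flight hypocotyls against flight roots. Among the members lower in roots than in leaves are SAUR27 in each environment and SAUR46 in the ground control. The median difference of the 10 members was -2.59 on the log2 scale in ground control hypocotyls against ground control leaves, while it was 0.02 over all probe sets, and -2.50 in ground control roots against ground control leaves, with 0.10 over all.

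**Figure D2:**
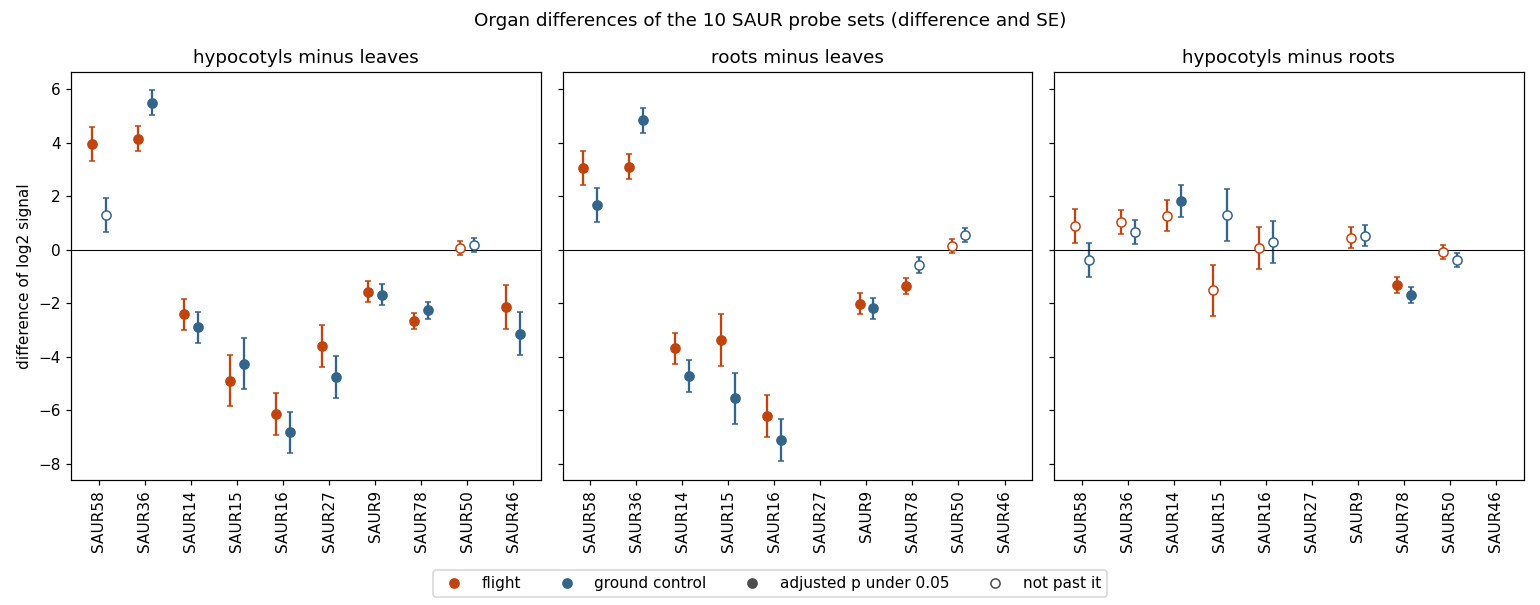
Difference of log2 signal between organs for each member with its standard error, in flight and in the ground control; filled symbols passed an adjusted p under 0.05 and open symbols did not. Differences of SAUR27 and SAUR46 that involve roots are left out because neither was called present on any root array. SAUR58 and SAUR36 lie above 0 against leaves and SAUR14, SAUR15, SAUR16, SAUR9 and SAUR78 below it in both environments.

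SAUR58 had its highest signals in hypocotyls of the flight plants. Its 5 flight hypocotyl arrays read 362, 125, 328, 257 and 293, against 125, 45.3, 43.4, 69.5 and 58.3 in ground control hypocotyls, both in the order plate 2, plate 4, plate 4, plate 6, plate 6. Every flight array was above every ground control array, but only narrowly. The first plate 4 array of flight read 125.49 and the plate 2 array of the ground control 125.33, so that the groups parted only by a fraction of a signal unit. The log2 difference was 2.03 (standard error 0.37), a 4.08-fold higher level, and it was 1.53 within plate 2, 2.19 within plate 4 and 2.11 within plate 6. MAS5 called SAUR58 present on 5 flight and 3 ground control hypocotyl arrays, and 4 of the 5 ground control arrays lay below the low-signal limit. Of the 5 xylem and secondary wall genes, 1 was also higher in flight hypocotyls at an unadjusted p under 0.05, the cellulose synthase gene IRX1 at 1082 ± 165 in flight and 705 ± 155 in the ground control (SD, n = 5 each), and the list's sum ran from 6062 to 10449 and from 3897 to 11996; its part in the SAUR58 difference was not tested.

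In roots SAUR58 read 251, 45.9, 244, 119.6 and 148 in flight and 71.8, 76.8, 65.9, 134 and 73.4 in the ground control. The root groups overlapped, with the highest values in flight on the plate 2 array and the second plate 4 array, and the log2 difference was 0.76 (standard error 0.45). In leaves SAUR58 was below the low-signal limit on all 10 arrays, at 5.19 to 78.2 in flight and 6.45 to 44.7 in the ground control. Whole plants gave 24.5, 30.2 and 32.1 in flight and 10.0, 10.2 and 10.2 in the ground control, all of them below the limit; the groups did not overlap, and the log2 difference of 1.51 (standard error 0.21) shrank to 0.47 when 38.6, the 25th percentile of all signals, was added before log2. The flight hypocotyl level exceeded that of flight leaves by 3.94 on the log2 scale (standard error 0.64, adjusted p = 1.73e-05), and the flight root level by 3.05 (standard error 0.64, adjusted p = 0.000297). The flight arrays also entered the contrasts that chose the members, so these flight p-values are not independent of that choice. In the ground control the hypocotyl level was 1.30 above that of leaves without passing the test (standard error 0.64, adjusted p = 0.113), and the root level passed at 1.67 (standard error 0.64, adjusted p = 0.0355) but not when ground control pool 2, 3, 4 or 5 was left out (adjusted p 0.0604 to 0.171). With the offset of 38.6 the hypocotyl difference was 2.25 in flight and 0.61 in the ground control and the root difference 1.54 in flight and 0.84 in the ground control, since every leaf signal was below the low-signal limit. Hypocotyls and roots did not differ past the threshold in either environment.

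SAUR36, also known as a senescence-associated gene whose product promotes leaf senescence, was high in hypocotyls and roots and low in leaves. Flight hypocotyls read 2174, 998, 1344, 1480.2 and 1354 and ground control hypocotyls 1135, 1419, 1176, 1565 and 1212, groups that overlapped throughout. In roots the signals ran from 408 to 1178 in flight, with a median of 692, and from 606 to 1139 in the ground control, with a median of 842. Hypocotyls were above leaves by 4.14 on the log2 scale in flight (standard error 0.46, adjusted p = 6.12e-08) and by 5.49 in the ground control (standard error 0.46, adjusted p = 4.81e-10), and roots were above leaves by 3.11 and 4.83 (adjusted p = 3.65e-06 in flight and 2.05e-09 in the ground control). Hypocotyls and roots did not differ past the threshold, with 1.04 in flight (standard error 0.46, adjusted p = 0.103) and 0.66 in the ground control (standard error 0.46, adjusted p = 0.314), although the flight difference passed with an offset of 38.6 (0.99, adjusted p = 0.00274).

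In leaves SAUR36 read 118, 69.7, 73.2, 51.4 and 109 in flight, against 67.6, 81.2, 7.98, 45.5 and 9.78 in the ground control. The log2 difference of 1.49 (standard error 0.69) rested on low signals, since 3 flight and all 5 ground control arrays were below the low-signal limit, and it was 0.68 with the offset of 38.6. It was positive within each plate, at 0.80, 1.49 and 1.83 in plates 2, 4 and 6. The root marker PYK10 was also higher in flight leaves at an unadjusted p under 0.05, with 1992 ± 571 in flight and 1313 ± 412 in the ground control (SD, n = 5 each), while the other 4 root markers lay below the low-signal limit. The list as a whole did not move that way, with 2 markers higher and 3 lower in flight leaves and a median log2 difference of -0.78; the part of root RNA in the SAUR36 difference was not tested. Whole plants had only 71.8 to 82.2 in flight and 56.0 to 99.9 in the ground control, all of them below the low-signal limit.

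SAUR14, SAUR15 and SAUR16 are neighbours on chromosome 4, with no other annotated protein-coding gene between them, and all were leaf-high. SAUR14 and SAUR16 belong to the SAUR genes induced by light in cotyledons, and SAUR15 is the auxin-induced gene first described as SAUR-AC1. SAUR14 gave 935, 376, 406, 316 and 291 in flight leaves and 616, 1375, 1678, 539.6 and 652 in ground control leaves. The flight array of plate 2 stood apart from the other flight arrays, and both ground control arrays of plate 4 stood above the rest of their group. SAUR15 gave 247, 110.3, 157, 97.1 and 102 in flight leaves and 165, 315, 229, 176 and 198 in ground control leaves, with the same arrays highest. SAUR16 had its highest flight array on plate 2 and its 2 highest ground control arrays on plate 4 as well, with 643, 227, 254, 329 and 275 in flight leaves and 350.0, 710.4, 499, 247 and 456 in ground control leaves.

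The leaf difference between flight and ground control was -1.05 for SAUR14 (standard error 0.42), -0.66 for SAUR15 (standard error 0.29) and -0.41 for SAUR16 (standard error 0.35) on the log2 scale. Its sign turned with the plate. Within plate 2, where each group has 1 array, it was 0.60 for SAUR14, 0.59 for SAUR15 and 0.88 for SAUR16, while within plate 4 it was -1.96, -1.03 and -1.31 and within plate 6 -0.97, -0.91 and -0.16. The ground control leaf array of plate 2 also differed in its 25th percentile of signals, which was 69.1, against 33.0 to 45.7 on the other ground control leaf arrays; its part in these values was not tested. In whole plants SAUR14 read 261, 323 and 117 in flight and 573, 637 and 229 in the ground control, with log2 differences of -1.13, -0.98 and -0.97 on plates 2, 4 and 6 although the groups overlapped. The leaf markers moved the same way in whole plants, at a sum of 18297 to 27690 in flight and 26788 to 35431 in the ground control, and their part in the SAUR14 difference was not tested. SAUR15 and SAUR16 were below the low-signal limit on all 6 whole-plant arrays.

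Outside leaves all 3 neighbours had lower signals. SAUR14 read 44.8 to 160.1 in flight hypocotyls and 58.7 to 161 in ground control hypocotyls, while roots gave 16.8 to 84.0 in flight and 4.88 to 70.7 in the ground control. SAUR15 ran from 0.894 to 29.2 in flight hypocotyls and 2.05 to 37.8 in ground control hypocotyls, and SAUR16 from 1.45 to 8.87 and from 1.19 to 13.0, so both were far below the low-signal limit there. Flight hypocotyls differed from flight leaves by -2.42 on the log2 scale for SAUR14, -4.90 for SAUR15 and -6.15 for SAUR16 (adjusted p = 0.00186, 0.000218 and 4.93e-07). Ground control hypocotyls differed from ground control leaves by -2.91 for SAUR14 (standard error 0.59, adjusted p = 0.000269), -4.26 for SAUR15 (standard error 0.97, adjusted p = 0.000914) and -6.83 for SAUR16 (standard error 0.78, adjusted p = 8.58e-08). With the offset of 38.6 these differences were -1.94, -1.90 and -3.03 in flight and -2.54, -2.20 and -3.40 in the ground control, all past the threshold. Since SAUR15 and SAUR16 were far below the low-signal limit in hypocotyls, the size of their differences depends on the offset. SAUR14 was also higher in ground control hypocotyls than in ground control roots, by 1.82 (standard error 0.59, adjusted p = 0.0181), a call that was lost without ground control pool 2 (adjusted p = 0.157) and with only the 10 arrays compared (adjusted p = 0.0807); in flight the same difference was 1.27 (adjusted p = 0.115). With the offset of 38.6 these were 0.98 in the ground control (adjusted p = 0.0197) and 0.70 in flight (adjusted p = 0.118).

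**Figure D3:**
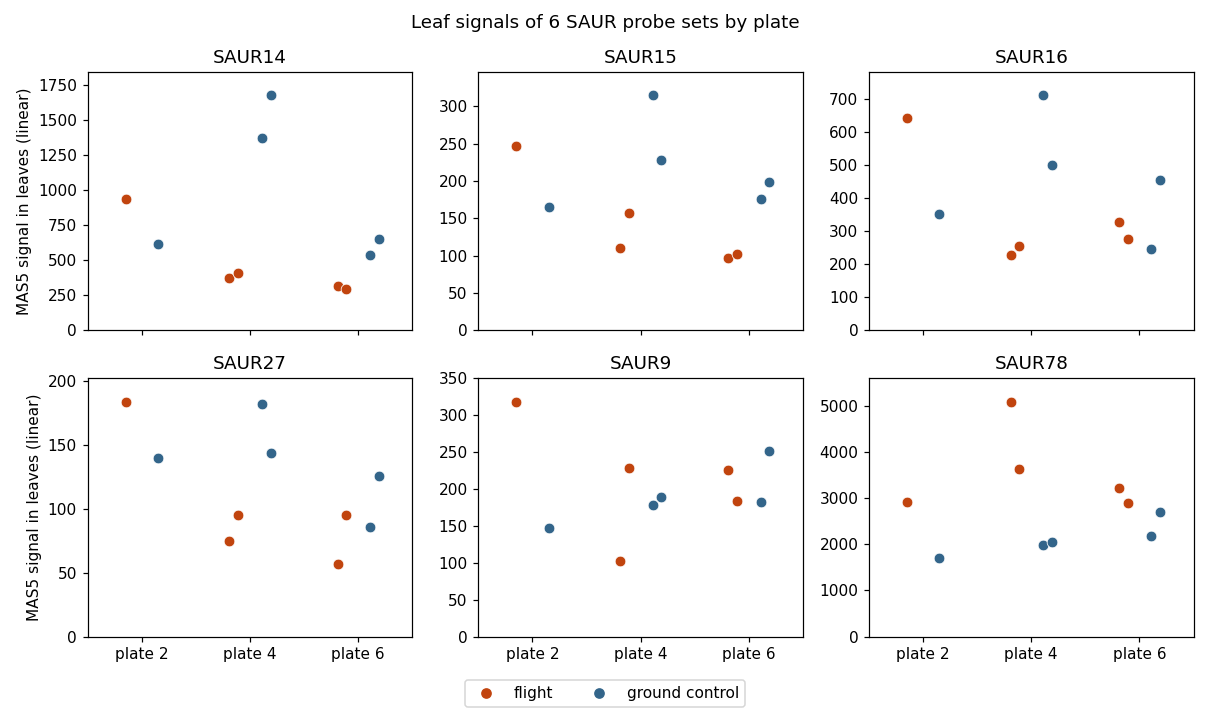
Signals in leaves (MAS5, linear axis) of the 6 leaf-high members by plate, flight left of ground control, 1 point per array. For SAUR14, SAUR15, SAUR16 and SAUR27 the flight array is the higher one in plate 2 and the ground control arrays are higher in plate 4; SAUR78 is higher in flight in each plate.

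SAUR27, of the subfamily around SAUR26 that is tied to growth at warm ambient temperature, stands between SAUR28 and SAUR73 on chromosome 3 and was leaf-high as well. Flight leaves read 184, 74.8, 94.8, 57.1 and 95.0, against 139, 182, 144, 85.5 and 126 in ground control leaves. As for the chromosome 4 neighbours, the flight array of plate 2 was the highest of its group and the ground control arrays of plate 4 the highest of theirs, and the difference was -0.50 on the log2 scale (standard error 0.32), with 0.40 within plate 2. In roots every array lay far below the low-signal limit of 108.6, with 2.26, 3.35, 1.18, 4.42 and 2.00 in flight and 18.3, 6.69, 36.4, 23.5 and 22.2 in the ground control. These root groups did not overlap, but MAS5 called SAUR27 present on 0 flight and 0 ground control root arrays, so no fold change is given. In hypocotyls it ran from 1.62 to 35.0 in flight and from 1.61 to 38.0 in the ground control, and it differed from leaves by -3.60 on the log2 scale in flight (standard error 0.79, adjusted p = 0.00072) and by -4.76 in the ground control (standard error 0.79, adjusted p = 2.64e-05). With the offset of 38.6 those differences were -1.37 and -1.84. Roots also passed against leaves, in flight (adjusted p = 4.06e-06) and in the ground control (adjusted p = 0.00513). The root arrays also entered the contrasts that chose the members, so these calls are not independent of that choice. They also rest on root signals that were not called present. Whole plants gave 42.2, 64.7 and 41.99 in flight and 39.7, 49.2 and 5.48 in the ground control.

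SAUR9, whose product inhibits PP2C-D phosphatases, was highest in leaves and mostly below the low-signal limit in hypocotyls. Flight leaves read 318, 103, 229, 226 and 184 and ground control leaves 147, 179, 189, 182 and 252, with the plate 2 array again the highest in flight and the first plate 4 array the lowest. The groups overlapped, and the log2 difference was 0.09 (standard error 0.29). Hypocotyls were at 45.98 to 91.8 in flight and 37.4 to 82.9 in the ground control, a difference from leaves of -1.58 in flight on the log2 scale (standard error 0.39, adjusted p = 0.0023) and of -1.68 in the ground control (standard error 0.39, adjusted p = 0.00123). Roots were at 14.4 to 99.1 in flight and 25.4 to 72.5 in the ground control and differed from leaves by -2.02 in flight and -2.20 in the ground control (adjusted p = 0.000131 and 4.43e-05), but not past the threshold from hypocotyls.

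SAUR78 encodes a protein that binds ethylene receptors, and it was measured well above the low-signal limit in every sample. Flight leaves read 2919, 5083, 3626, 3214 and 2890.3, against 1709.9, 1974, 2048, 2170.4 and 2690.4 in ground control leaves. All 5 flight arrays were above all 5 ground control arrays, with a log2 difference of 0.73 (standard error 0.19) or 1.65-fold, and the difference was 0.77, 1.09 and 0.33 within plates 2, 4 and 6. In the other organs the groups overlapped, and the difference was 0.34 in hypocotyls (standard error 0.40) and -0.06 in roots (standard error 0.25). Hypocotyls ran from 361 to 765 in flight and from 255 to 1133 in the ground control, and roots from 958 to 1653 and from 1004 to 1988. Whole plants, with 1460.0, 2081 and 1079.6 in flight and 2157, 1564 and 1914 in the ground control, overlapped, and their difference was -0.33 (standard error 0.32).

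The organ order of SAUR78 was leaves, then roots, then hypocotyls. In flight the hypocotyls differed by -2.66 from leaves (standard error 0.30, adjusted p = 7.16e-08) and by -1.31 from roots (standard error 0.30, adjusted p = 0.00141) on the log2 scale, and roots differed by -1.35 from leaves (adjusted p = 0.000584). In the ground control hypocotyls differed by -2.27 from leaves (adjusted p = 8.89e-07) and by -1.71 from roots (adjusted p = 6.23e-05), whereas the difference of -0.57 between roots and leaves did not pass the threshold (standard error 0.30, adjusted p = 0.136).

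SAUR50, another light-induced SAUR of cotyledons, lies between SAUR49 and SAUR1 on chromosome 4 and had similar levels in the 3 organs. Flight roots read 1169, 1364, 683, 799 and 629, against 1531, 1570.1, 1164, 1463 and 1328 in ground control roots. The groups overlapped through the first plate 4 array and the plate 2 array of flight, and the log2 difference was -0.66 (standard error 0.23), negative within each plate at -0.39, -0.49 and -0.98. The difference was also negative in hypocotyls, at -0.36 (standard error 0.25), in leaves, at -0.25 (standard error 0.29), and in whole plants, at -0.42 (standard error 0.31), with overlapping groups each time. Hypocotyls ran from 636 to 1199 in flight and from 787 to 1439 in the ground control, and leaves from 590.5 to 1061 and from 569 to 1500.0. None of its 6 organ contrasts passed the threshold, and the adjusted p ran from 0.0965 for ground control roots against ground control leaves, a difference of 0.55 (standard error 0.26), to 0.924.

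SAUR46 lay below the low-signal limit on all 36 arrays. Its root signals were 25.6, 4.50, 8.21, 31.2 and 36.2 in flight and 1.70, 2.24, 2.30, 3.30 and 9.50 in the ground control, overlapping groups in which the lowest flight values came from plate 4. MAS5 called it present on 0 flight and 0 ground control root arrays, so no fold change is given. Leaves ran from 2.25 to 55.5 in flight and from 4.00 to 67.1 in the ground control, and hypocotyls from 1.45 to 4.83 and from 2.11 to 3.56. Hypocotyls differed from leaves by -2.15 on the log2 scale in flight (standard error 0.81, adjusted p = 0.042). That call was lost under 9 of 17 alternatives, among them the offset of 38.6 (a difference of -0.50, adjusted p = 0.0635), a fit of only the 10 arrays compared (adjusted p = 0.113) and leaving out flight pool 1, 2 or 3 or ground control pool 1 or 4 (adjusted p 0.0526 to 0.162). In the ground control the difference was -3.14 (standard error 0.81, adjusted p = 0.00301; with the offset -0.71, adjusted p = 0.00703), and roots also passed against leaves (adjusted p = 0.00558). Its flight hypocotyls also passed against flight roots (adjusted p = 0.0195), a call lost with the offset and without flight pool 1, 4 or 5 (adjusted p 0.0519 to 0.101). The flight root arrays also entered the contrasts that chose the members, so this call is not independent of that choice. In the ground control, hypocotyls against roots did not pass (adjusted p = 0.835 by limma).

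Between flight and ground control, 0 of the 10 members passed an adjusted p under 0.05 in any organ or in whole plants by limma. Over all probe sets 0.0044% passed in hypocotyls, 0% in leaves, 0% in roots and 0.0044% in whole plants, which is 1 probe set in hypocotyls and 1 in whole plants. At an unadjusted p under 0.05 the members counted 1 in hypocotyls (SAUR58), 3 in leaves (SAUR14, SAUR15 and SAUR78), 3 in roots (SAUR27, SAUR46 and SAUR50) and 1 in whole plants (SAUR58), beside 6.23%, 7.61%, 7.2% and 4.53% of all probe sets. These contrasts chose the members, and nothing is read from the counts. The median difference of the members was 0.17 in hypocotyls, -0.45 in leaves, 0.12 in roots and -0.37 in whole plants, with -0.01, -0.07, 0.00 and -0.01 over all probe sets.

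Whether flight moved a member differently in 2 organs was examined as an interaction. None of the members passed an adjusted p under 0.05 by limma, nor did any probe set (0% in each of the 3 contrasts). An interaction is a difference of the contrasts that chose the members, so its values are a description too. At an unadjusted p under 0.05 there was 1 member for hypocotyls minus leaves, 2 for hypocotyls minus roots and 3 for roots minus leaves, beside 5.35%, 5.62% and 6.51% of all probe sets, and nothing is read from these counts, which include SAUR27 and SAUR46 in roots. For SAUR58 the effect in hypocotyls exceeded that in leaves by 2.65 on the log2 scale (standard error 0.90; 1.64 with the offset). For SAUR36 the effect in roots minus that in leaves was -1.73 (standard error 0.66; -0.90 with the offset).

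**Figure D4:**
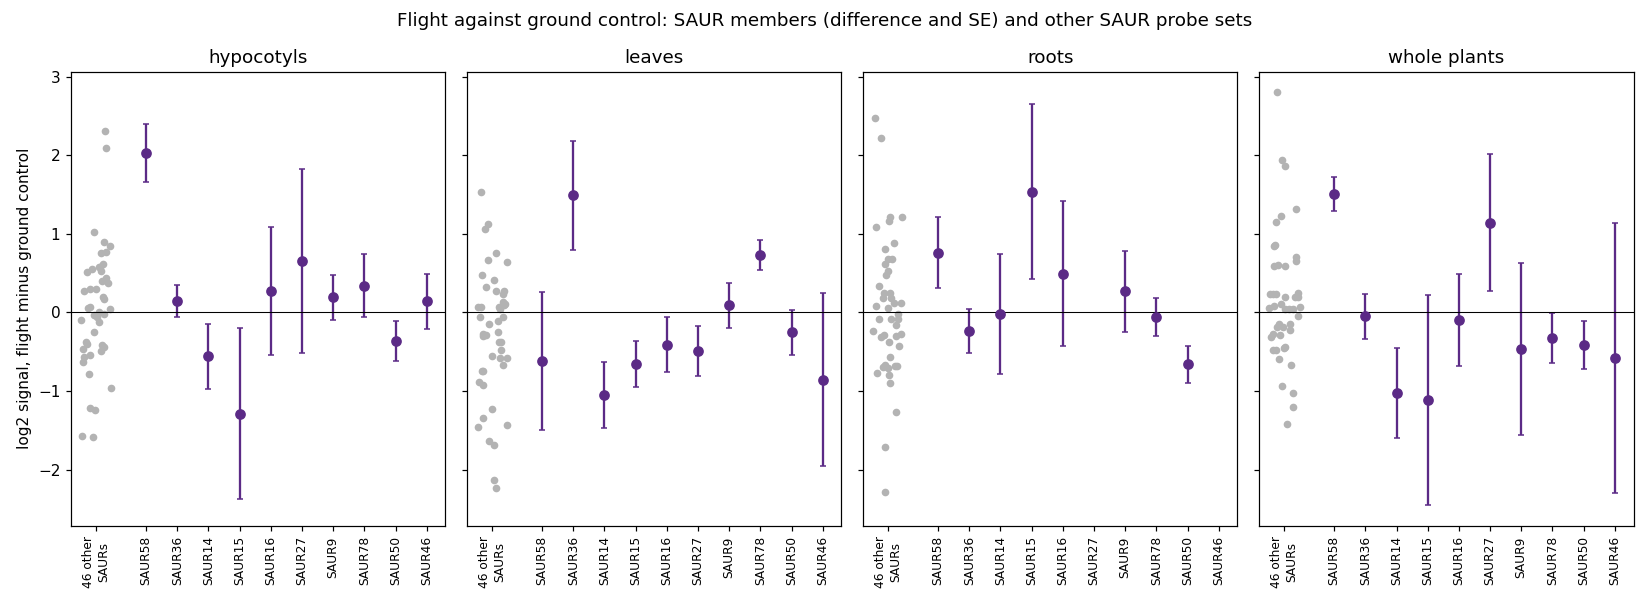
Difference of log2 signal, flight minus ground control, for the 10 members with standard errors and, in grey, for the 46 other SAUR probe sets, in hypocotyls, leaves, roots and whole plants; SAUR27 and SAUR46 have no value in roots, where neither was called present on any array. SAUR58 lies at 2.03 in hypocotyls and 1.51 in whole plants, and the other SAUR probe sets spread on both sides of 0.

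Among the 46 other SAUR probe sets of 1 gene, 0 passed an adjusted p under 0.05 in hypocotyls, leaves, roots or whole plants. At an unadjusted p under 0.05, 5 were higher and 2 lower in flight hypocotyls, 2 and 4 in flight leaves, 4 and 6 in flight roots and 1 and 0 in flight whole plants, where 6.23%, 7.61%, 7.2% and 4.53% of all probe sets passed in either direction. Their median differences were 0.05 in hypocotyls, -0.20 in leaves, -0.05 in roots and 0.06 in whole plants. SAUR79 had the smallest p of the 46 in roots, with 868 ± 444 in flight and 156 ± 87.0 in the ground control (SD, n = 5 each), groups that ran from 295 to 1337 and from 76.5 to 279 without overlap. Its log2 difference was 2.47 (standard error 0.50, adjusted p = 0.253), and it passed at an adjusted p of 0.0296 when low-signal probe sets were left out of the fit. The share of all probe sets that passed in that fit is not given here, so whether SAUR79 stands out there is not known. In whole plants the 2 groups of SAUR79 averaged 476 ± 195 in flight and 225 ± 181 in the ground control (SD, n = 3 each) and overlapped. SAUR49, a neighbour of SAUR50, averaged 1640.1 ± 369 in flight roots and 2830.5 ± 469 in ground control roots (SD, n = 5 each). Its log2 difference there was -0.80 (standard error 0.20, adjusted p = 0.338), beside the -0.66 of SAUR50. In hypocotyls SAUR49 differed by -0.13 (standard error 0.31) and SAUR50 by -0.36. SAUR1, the other neighbour of SAUR50, differed by -0.23 in roots (standard error 0.32). It was at 168 ± 30.8 in flight hypocotyls and 89.2 ± 44.8 in ground control hypocotyls (SD, n = 5 each). In leaves it was at 2105 ± 495 in flight and 1265 ± 411 in the ground control (SD, n = 5 each). The log2 differences in hypocotyls and leaves were 1.02 and 0.76 (adjusted p = 0.703 and 0.563).

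Across organs, the 46 other SAUR probe sets had peaks in each organ. The highest level was in leaves for 25 in flight and 24 in the ground control, in roots for 14 and 17 and in hypocotyls for 7 and 5. The share of all probe sets that were highest in each organ is not given here, so nothing is read from these counts. Some of the counted probe sets, such as SAUR18 and SAUR44, had means far below the low-signal limit in every organ. In ground control hypocotyls against ground control leaves 9 were higher and 17 lower at an adjusted p under 0.05 (21.4% and 16.2% of all probe sets), and in ground control roots against ground control leaves 15 were higher and 15 lower (25.6% and 17.3%). Their median differences were -0.76 and -0.71, against -2.59 and -2.50 of the members. These medians were taken without an offset, and those of the members rested partly on signals below the low-signal limit. The gap between the members and the others was not tested, since the members were picked by hand.

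The partners of SAUR proteins and the auxin pathway above them were examined through 6 lists. None of the listed genes passed an adjusted p under 0.05 between flight and ground control in any organ or in whole plants. Of the 9 PP2C-D phosphatases, 2 were higher in flight roots at an unadjusted p under 0.05, where 7.2% of all probe sets passed. In hypocotyls, leaves or whole plants 0 passed. Whether each listed phosphatase is inhibited by a SAUR protein or acts on the pumps was not tested. The list's median difference in roots was 0.13. AT4G33920 averaged 642 ± 264 in flight roots and 262 ± 51.7 in ground control roots (SD, n = 5 each), a log2 difference of 1.20 (standard error 0.31, adjusted p = 0.357), and AT5G02760 averaged 41.9 ± 20.7 in flight roots and 15.03 ± 12.4 in ground control roots, below the low-signal limit. Of the 11 plasma membrane proton pumps, 1 was lower in flight roots at an unadjusted p under 0.05. This was the low-signal HA6 at 7.79 ± 6.87 in flight and 33.1 ± 13.98 in the ground control (SD, n = 5 each). The pumps' median differences were 0.09 in hypocotyls, -0.01 in leaves, -0.10 in roots and 0.04 in whole plants.

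Of the 28 Aux/IAA repressors, which hold auxin response genes off until auxin triggers their degradation, 0 were higher and 4 lower in flight hypocotyls at an unadjusted p under 0.05, 0 and 3 in flight leaves, 0 and 1 in flight roots and 2 and 0 in flight whole plants, beside 6.23%, 7.61%, 7.2% and 4.53% of all probe sets. IAA12 averaged 430.1 ± 64.6 in flight hypocotyls and 665 ± 72.8 in ground control hypocotyls (SD, n = 5 each), without overlap, a log2 difference of -0.64 (standard error 0.15, adjusted p = 0.599), and 235 ± 39.0 in flight leaves and 326 ± 36.3 in ground control leaves. IAA2 averaged 816 ± 209 in flight roots and 1225 ± 156 in ground control roots, a log2 difference of -0.62 (standard error 0.21, adjusted p = 0.551). IAA20, with the smallest p in hypocotyls, was below the low-signal limit on all arrays there, at 2.73 ± 1.24 in flight and 26.1 ± 15.9 in the ground control. The 2 higher in flight whole plants were IAA29, with a log2 difference of 2.61 (standard error 0.87), and IAA14, with 1.17 (standard error 0.47). IAA29 averaged 93.4 ± 58.6 in flight and 19.4 ± 18.7 in the ground control (SD, n = 3 each). IAA14 averaged 112 ± 40.0 and 52.6 ± 29.4. Every ground control array of both was below the low-signal limit of 110.7. The list's median difference was -0.19 in hypocotyls, -0.11 in leaves, -0.11 in roots and -0.12 in whole plants.

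Among the 6 auxin receptors, 1 was higher at an unadjusted p under 0.05 in flight leaves and 1, AFB1, in flight roots. AFB3 averaged 728 ± 145 in flight leaves and 502 ± 76.8 in ground control leaves (SD, n = 5 each), and the list's median difference stayed between -0.09 and 0.05. Of the 15 ARF transcription factors, 0 in hypocotyls, leaves and roots and 2 in whole plants (ARF6 and ARF11, both lower in flight) passed an unadjusted p under 0.05. None of the 6 GH3 enzymes, which conjugate auxin to amino acids, did so. GH3.3 ran from 22.7 to 825 in flight hypocotyls and from 4.08 to 94.6 in ground control hypocotyls.

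The probe sets of 1 gene outside the family whose log2 signals were most like those of each member over the 30 organ arrays are given as a description by Pearson's r, with arrays of an organ shared by all pairs. For the leaf-high members these were LPA3 (0.94), a photosystem assembly factor, for SAUR14, AT5G50915 (0.88) and the guard cell potassium channel KAT2 (0.85) for SAUR15, SPD1 (0.95) for SAUR16, the cuticle transporter ABCG32 (0.84) for SAUR27, AT3G22150 (0.90) and the wax gene CER2 (0.87) for SAUR9, and the auxin-signalling receptor kinase TMK1 (0.95) for SAUR78. The zinc finger gene ZFP5 (0.94) was nearest to SAUR36, the kinase gene MPK1 (0.83) to SAUR58, AT4G28310 (0.83) to SAUR50 and Z-ISO (0.73), of carotenoid synthesis, to SAUR46. Within the family, SAUR1 was nearest to SAUR16 (0.90), SAUR32 to SAUR36 (0.87), SAUR23 to SAUR15 (0.84), SAUR16 to SAUR14 (0.82) and SAUR49 to SAUR50 (0.51).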

How the data were processed

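Transcripts of 36 samples were measured on ATH1 arrays. The deposited values are linear signal intensities computed by the authors in Expression Console, Affymetrix's software, with the MAS5 algorithm; the software's version is not given in the sources used here. The deposited organ tables also hold the authors' fold changes with p and q values, which were not used; only the number of arrays called present was taken from them. Probe sets were named by the deposited annotation and the RefSeq table of TAIR10.1, and 64 array controls were left out.

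Log2 signals without an offset were fitted in limma 3.58.1 (R 4.3.3; lmFit and eBayes) over 22746 probe sets with Benjamini-Hochberg adjustment, for flight against ground control within each organ, and for organ contrasts and interactions over the 30 organ arrays. Tables and figures used Python 3.11.15 with pandas. The fits were tested on simulated data with known changes. On arrays no counts give a depth, and the number of arrays limits the precision.

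The members and the gene lists (auxin receptors, Aux/IAA repressors, ARF factors, GH3 enzymes, PP2C-D phosphatases, proton pumps, leaf markers, root markers, and xylem genes) were chosen with earlier results of these data known. Named in the text are the members, up to 3 other SAUR probe sets and up to 2 genes per list with the smallest p in a comparison, and the most similar probe sets. Whether pools of the same number in different organs came from the same plants was not stated; their deviations correlated at -0.06 to 0.34 (18 of 30 pairs above 0.1), and limma's estimated correlation within a pool was 0.0306. The alternatives were quantile normalization, a shared 75th percentile, an offset of 38.6, leaving out the lowest 40% of probe sets, limma's trend and robust settings, blocks for replicate and plate, the methods' t-test, other sets of arrays in the fit and leaving out each array or pool.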

Additional observations from a re-analysis of the deposited data

Results flagged for a closer look

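In 60 groups of 5 arrays (10 members, 3 organs, 2 environments), 5 groups held an array far from the other 4 on the log2 scale, where chance alone marks about 1 in 20 groups. SAUR58 read 6.45 on the second plate 6 array of ground control leaves, the lowest of its group, against 29.8 to 44.7 on the others, and 134 on the first plate 6 array of ground control roots, against 65.9 to 76.8 on the others. SAUR14 read 935 on the plate 2 array of flight leaves, against 291 to 406 on the others, and 4.88 on the first plate 4 array of ground control roots, against 36.04 to 70.7 on the others. SAUR16 read 32.4 on the plate 2 array of flight roots, against 2.06 to 3.35 on the others. All of these but the flight leaf array and the root array at 134 lie below the low-signal limit.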

How the results depend on the processing

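The number of arrays and signals near background limit these values. Of the 10 members, 6 have a mean log2 signal over the organ arrays among the lowest 40% and leave the organ fit when low-signal probe sets are dropped, so that SAUR14, SAUR36, SAUR50 and SAUR78 stay. The members called were then 3 for flight hypocotyls against flight leaves, 1 for flight hypocotyls against flight roots and 3 for flight roots against flight leaves. In the ground control they were 3 for hypocotyls against leaves and 2 for roots against leaves. Fewer members were tested in these fits. Of the other SAUR probe sets, 1, SAUR79, passed between flight and ground control in roots. The share of all probe sets that passed is not given here for these fits or for the other alternatives below. Leaving out 1 pool at a time gave 1 to 3 members for flight hypocotyls against flight roots (1 without flight pool 1, 4 or 5), 1 to 3 for ground control hypocotyls against ground control roots (1 without ground control pool 2), 8 to 9 for flight hypocotyls against flight leaves, 7 to 8 for ground control roots against ground control leaves and 8 in the other 2 contrasts. With flight and ground control replicates of the same number taken as a replicate block, 0 members passed in each organ and in whole plants, as without it; same-numbered arrays deviated together only in part (correlations from -0.18 to 0.29, 8 of 15 above 0.1). A random replicate block for the pool gave 9, 2 and 8 members in flight and 8, 2 and 8 in the ground control for the 3 organ contrasts, the same counts as without a block. Of 643 values of the organ contrasts that passed, under alternatives, 624 stayed past the threshold in the same direction, 19 lost it and 0 reversed. Of 716 values for flight against ground control, 33 moved by more than the spread between arrays, 31 of them within single plates, and the other 2 were SAUR58 in whole plants with quantile normalization (1.33) and with the offset (0.47).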
